A study of Mus musculus with 6 samples.

Results

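The genes of the cytoplasmic ribosomal proteins were examined in mouse presomitic mesoderm, the tissue from which somites form, dissected on embryonic day 10.5. Members were the genes with a single-gene probe whose symbol follows the Rpl, Rplp, Rps or Rpsa naming pattern, without the Rps6k kinases. This rule found 59 of the 13840 genes named on the array, read by 69 of its 33012 probes, and each gene was represented by its probe of highest mean log2 intensity over all arrays. Large-subunit proteins made up 40 of these genes and small-subunit proteins 19. Wildtype littermates (3 arrays) were compared with Nrarp knockouts (3 arrays), numbered 1 to 3 in each genotype. In the knockout allele, made by homologous recombination, LacZ stands in place of the coding region of Nrarp, a Notch-induced ankyrin-repeat protein, and the embryos came from matings between heterozygous parents. The strain and the sex of the embryos were not given in the sources used here. For each genotype 12 presomitic mesoderms had been collected. The labels do not tie arrays to embryos, so the replicate spread behind each p-value may be technical. In bulk tissue, fewer cells of a type and less RNA per cell cannot be told apart.

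Each ribosome holds a large and a small subunit, in which a fixed set of proteins is assembled with ribosomal RNA in the nucleolus. Because the proteins are needed in near-equal numbers, their genes are expressed together and at high levels in growing tissue. In vertebrates their transcripts typically begin with a short run of pyrimidines, the terminal oligopyrimidine tract, through which the mTOR pathway controls their translation. Loss of single ribosomal protein genes in mice can give tissue-specific defects, such as the altered vertebral pattern of Rpl38 mutants.

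The series-wide facts that bear on these genes were as follows. The Nrarp probe read between 8.31 and 8.81 on wildtype and between 3.83 and 5.41 on knockout arrays, on the log2 scale of the deposited intensities, on which array medians lie near 0. Its log2 difference of -4.03 had a limma adjusted p of 0.428, and of 0.00042 with the replicate number as a block. The sources used here do not place this probe inside or outside the replaced stretch. Of 11 presomitic markers 8 were measured, and all 8 lay above the median of all probes. Their summed intensity was 1404 to 1736 in wildtype and 1491 to 1688 in the knockout. The 6 measured markers of primitive red cells summed to 5770 to 7692 and 4894 to 7739, carried by embryonic globin genes such as Hbb-bh1. Of 6 neural tube markers, Sox1, Pax6 and Neurog2 averaged below 0, while Sox2 averaged 3.76, Neurog1 2.25 and Olig2 1.07, and the list summed to 19.5 to 34.5 in wildtype and 18.2 to 28.8 in the knockout. Surface ectoderm markers (7) summed to 205 to 292 and 205 to 301, gut endoderm markers (5) to 33.5 to 62.7 and 33.0 to 58.9, and endothelial markers (6) to 96.4 to 141 and 89.8 to 114. The 75th percentile of all probes was 3.15 and 3.28 on the replicate 1 arrays and 2.29 to 2.56 on the other 4 arrays.

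Ribosomal protein probes were among the brightest on every array. The mean log2 intensity of 55 of the 59 members lay in the top 10% of all probes, and that of 41 in the top 1%. The median member averaged 9.98, against -0.18 for the median of all probes. With 59 of 33012 probes, the members carried 7.12%, 6.50% and 6.95% of the summed intensity on the wildtype arrays and 6.77%, 6.96% and 6.74% on the knockout arrays. These shares overlapped between the genotypes. Large-subunit members had a median of 9.97 and small-subunit members of 10.01. A probe's intensity also depends on its sequence, so these readings describe probes and give no order of transcript amounts. The reference gene table names 238 pseudogenes after 49 of the members, and how far their transcripts add to these probes was not tested.

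**Figure D1:**
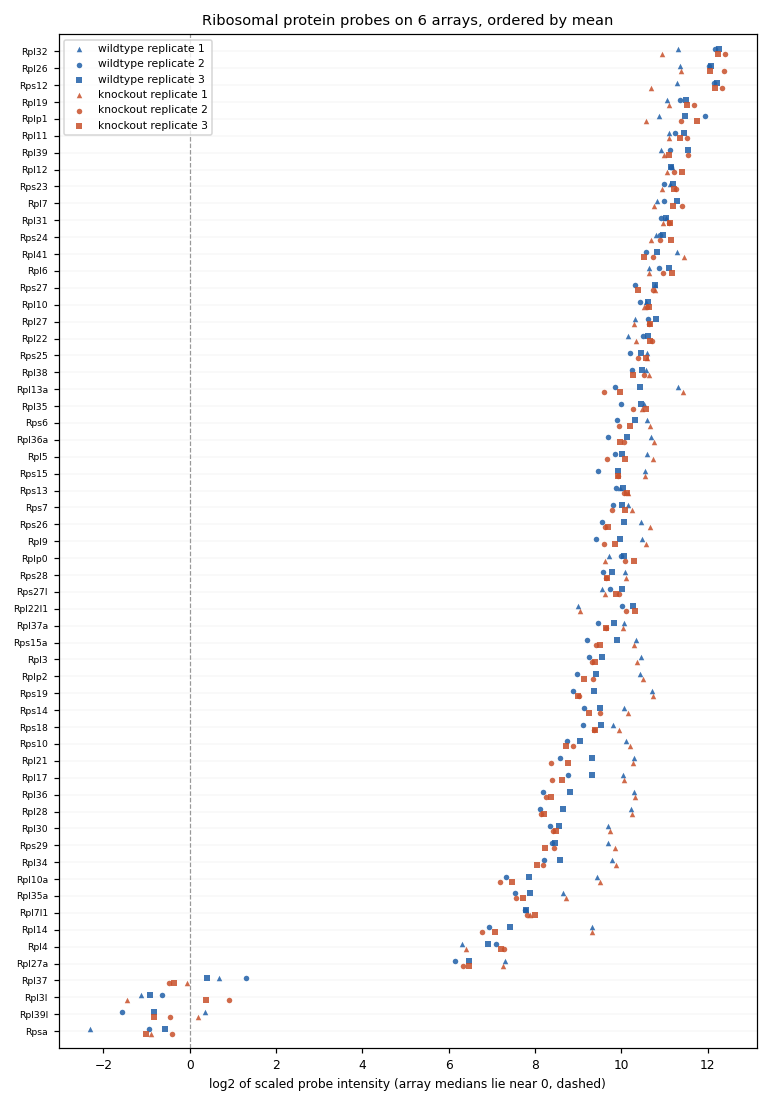
Log2 of scaled probe intensity (horizontal axis) of the 59 ribosomal protein genes, ordered by their mean, with 1 point per array (blue, wildtype; orange, knockout; triangles, replicate 1; circles, replicate 2; squares, replicate 3). Most genes lie between 8 and 12, and the triangles of both genotypes often stand together and apart from the other 4 points.

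The brightest probe was that of Rpl32, a large-subunit protein gene, which read 11.31, 12.18 and 12.27 in wildtype and 10.95, 12.40 and 12.24 in the knockout. Rpl26 averaged 11.88, the small-subunit gene Rps12 averaged 11.81, Rpl19 averaged 11.37 and Rplp1 averaged 11.34. The steadiest probes were those of Rpl31, Rpl10 and Rpl7l1, with SDs over the 6 arrays of 0.08, 0.08 and 0.09. Rpl10, whose protein joins the large subunit late in its assembly, read 10.56, 10.43 and 10.62 in wildtype and 10.54, 10.60 and 10.64 in the knockout. The least steady were Rpl14, Rpl10a and Rpl28, with SDs of 1.19, 1.06 and 1.02. For these 3 genes the high values were those of replicate 1 in both genotypes.

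Below the median of all probes lay 3 members, with a further gene just above it. Rpsa, a small-subunit protein also known as a laminin receptor, read -2.30, -0.95 and -0.58 in wildtype and -0.90, -0.42 and -1.01 in the knockout. This is the reading of a single probe for a core ribosomal protein. Rpl37, another core protein gene, averaged 0.25. The other dim members were Rpl39l, a paralogue known from testis, at -0.52, and Rpl3l, a paralogue known from muscle, at -0.48. Among the brighter members the lowest was Rpl27a at 6.66.

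No ribosomal protein gene passed the test between genotypes. In limma without a replicate term 0 of 59 members had an adjusted p under 0.05, as had 0 of 33012 probes (0%). On simulated data this fit found 0% of the probes changed by 2-fold or 4-fold, so the count of 0 without the block bounds no change. Adding the block raised the share found to 88.2% at 4-fold, but only to 51.0% at 2-fold. Over probes of the array at large, a count of 0 with the block can therefore still miss many 2-fold changes. The share found was not tested for probes of the members' level and spread. With the block their median standard error (SE) was 0.106, against 0.428 for all probes. With the replicate number as a block 0 members passed again, against 0.00606% of all probes. At an unadjusted p under 0.05 stood 1 member, Rpl37, lower in the knockout, or 1.69% of the members, against 0.657% of all probes in either direction and 0.312% on the lower side. With the block it was 2 members, Rpl37 and Rpl17, or 3.39%, against 3.75% of all probes. The groups did not overlap for 3 members, or 5.08%, against 3.78% of all probes. Higher in the knockout were Rps13 and Rpl7l1 (2.04% of all probes on that side), and lower was Rpl37 (1.74%).

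The median log2 difference, knockout minus wildtype, was 0.03 over the members and -0.01 over all probes. Of the members 38 (64.4%) had a positive difference, against 49.1% of all probes. The count was 45 after centring on 75th percentiles and 30 after quantile normalization. In the large subunit 26 members were positive and 14 negative (median 0.05), in the small subunit 12 and 7 (median 0.02). The lean to positive values was not held by the arrays. Within replicates 1, 2 and 3 the members' median difference was 0.02, 0.16 and -0.10, with 37, 49 and 20 of 59 members positive. The median over all arrays became -0.11 without wildtype replicate 2 and -0.05 without knockout replicate 1, with 20 and 27 members positive. All 3 pairs matched by number were positive for 8 members (13.6%, against 13.2% of all probes) and negative for 3 (5.08%, against 10.5%).

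**Figure D2:**
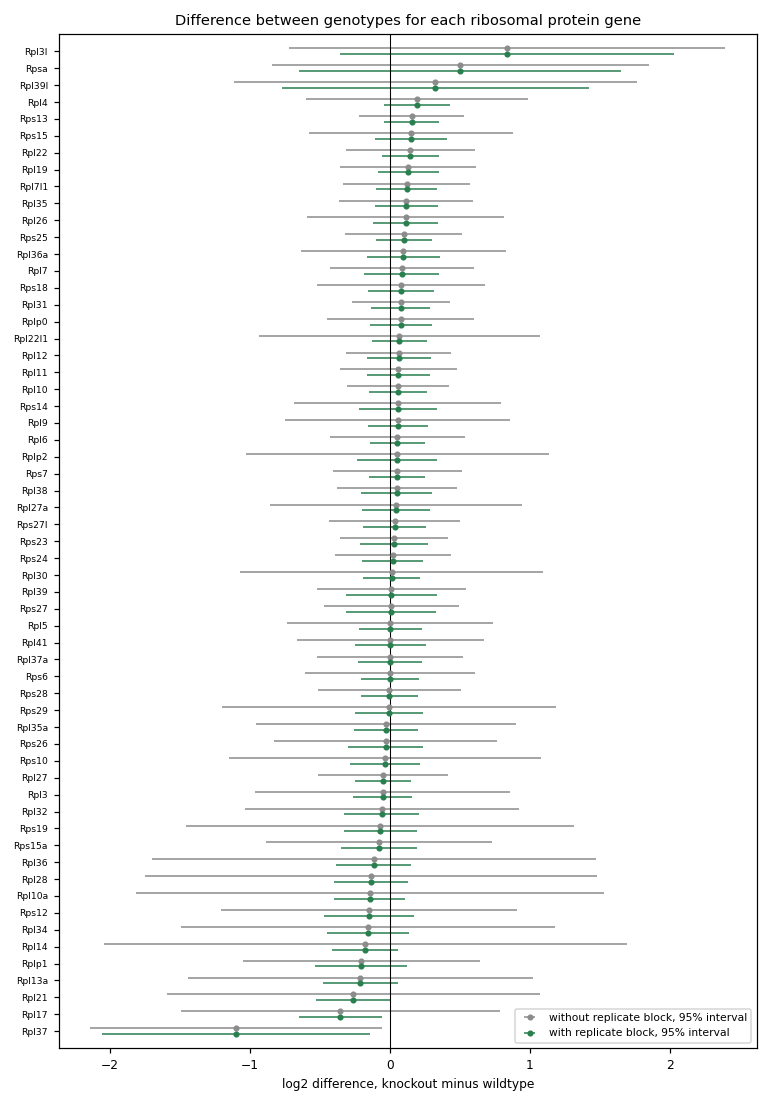
Log2 difference, knockout minus wildtype (horizontal axis), with 95% intervals for each of the 59 genes, from the limma fit without (grey) and with (green) the replicate number as a block. Apart from Rpl37, Rpl3l, Rpsa and Rpl39l the points lie between -0.35 and 0.20, and without the block only the interval of Rpl37 leaves out 0.

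The differences of bright members were small, and the arrays bound them in part. Of the 51 members with a mean above 8, the differences ranged from -0.35 to 0.16. The 95% interval without the block lay within 1 log2 unit of 0, a 2-fold change, for 38 of the 59 members (64.4%, against 14.1% of all probes). With the block it did so for 55 members, against 35.1% of all probes. These shares compare unlike levels, as the median member averaged 9.98 and the median probe -0.18. The median SE without the block was 0.317 for members and 0.570 for all probes. Probes of matched level were not compared. For the 51 bright members the blocked intervals reached no lower than -0.65 and no higher than 0.41, and the intervals without the block no lower than -1.82 and no higher than 1.53. A missed threshold does not show that these genes were alike in both genotypes.

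Rpl37, a large-subunit protein gene with a dim probe, was the member at an unadjusted p under 0.05 in both fits. It read 0.68, 1.31 and 0.40 in wildtype and -0.05, -0.48 and -0.36 in the knockout, so the 3 knockout values all lay below the 3 wildtype values. The log2 difference was -1.10 (SE 0.448, 95% interval -2.14 to -0.06), with an unadjusted limma p of 0.041 and an adjusted p of 1.00. The exact two-sided permutation test gave p = 0.1, the smallest that 3 against 3 arrays allow. These intensities lie about the array medians in both genotypes, so no fold is given. Its unadjusted p was no longer under 0.05 with an offset of 1 added before log2 (0.063), after centring on 75th percentiles (0.106), or without wildtype replicate 1, wildtype replicate 2, knockout replicate 1, knockout replicate 2 or knockout replicate 3. Its sign held in all 16 alternatives, where the difference ranged from -1.30 to -0.60.

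Rps13, a small-subunit protein gene, read 9.97, 9.88 and 10.03 in wildtype against 10.16, 10.07 and 10.12 in the knockout. The groups were separated, but the difference was 0.16 (SE 0.162, limma adjusted p = 1.00), a 1.11-fold higher reading. Rpl7l1, a paralogue of Rpl7, read 7.79, 7.78 and 7.79 against 7.89, 7.82 and 7.999, a difference of 0.12 (SE 0.196). Rpl17, whose protein lines the large subunit's exit tunnel, read 10.05, 8.77 and 9.33 against 10.05, 8.40 and 8.63. Here the groups overlapped, and the difference was -0.35 without the block (95% interval -1.49 to 0.79) and, with the block, had an interval of -0.65 to -0.05 (limma unadjusted p = 0.026, adjusted p = 0.999). Within the pairs it was 0.01, -0.37 and -0.69. Next in size above the median level were Rpl21 at -0.26, Rpl13a at -0.21 and Rplp1 at -0.20 on the lower side, and Rpl4 at 0.20, Rps15 at 0.15, Rpl22 at 0.15 and Rpl19 at 0.13 on the higher side.

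The stalk proteins recruit translation factors to the large subunit. Rplp0 read 9.72, 9.99 and 10.07 in wildtype and 9.63, 10.08 and 10.30 in the knockout, a difference of 0.08. Rplp1 read 10.88, 11.95 and 11.49 against 10.57, 11.39 and 11.74. Rplp2 read 10.44, 8.98 and 9.41 against 10.49, 9.35 and 9.14, a difference of 0.05. The values of all 3 genes overlapped between genotypes, and the replicate 1 arrays held the highest Rplp2 and the lowest Rplp0 and Rplp1 readings of each genotype.

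Rpl5 and Rpl11 form a particle with 5S ribosomal RNA that can bind Mdm2 and thereby raise p53 when ribosome assembly fails. Rpl5 read 10.59, 9.85 and 10.03 in wildtype and 10.73, 9.66 and 10.09 in the knockout, and its difference was 0.00. Rpl11 read 11.10, 11.24 and 11.45 against 11.10, 11.52 and 11.36, a difference of 0.06. Neither gene separated the genotypes. Of 20 listed p53 targets 15 were measured and 0 passed, with 6 higher and 9 lower in the knockout. Their median was -0.04, against 0.01 after centring on 75th percentiles and 0.00 without knockout replicate 2. At an unadjusted p under 0.05 stood 0 of them without the block and 2 with it, both lower in the knockout, against 3.75% of all probes with the block. These were Perp, a desmosomal protein gene induced by p53 (-1.48), and the cell cycle inhibitor gene Cdkn1a (-0.85). Perp read 4.19, 1.40 and 2.50 in wildtype and 4.58, -0.93 and 0.02 in the knockout, so it too was highest on the replicate 1 arrays.

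Several members are known from disease or development. Rpl38, the gene with a known role in vertebral patterning, read 10.57, 10.24 and 10.48 in wildtype and 10.64, 10.53 and 10.27 in the knockout. Its difference was 0.05 (95% interval -0.38 to 0.48 without the block). Rps19, the gene most often mutated in Diamond-Blackfan anaemia, read 10.72, 8.88 and 9.36 against 10.73, 9.03 and 8.99, a difference of -0.07. The replicate 1 readings of Rps19 were nearly equal in the genotypes and above all others. Rps6, the substrate of the S6 kinases, read 10.59, 9.89 and 10.32 against 10.67, 9.94 and 10.20, a difference of 0.00. Rps7 differed by 0.05 and Rps14, a small-subunit gene known from a form of anaemia with a chromosome deletion, by 0.06. Rpl24, Rps3, Rps20 and Rps27a have no named probe here.

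Of the paralogue pairs, 5 have both partners among the members. Rpl22 read 10.16, 10.50 and 10.62 in wildtype and 10.34, 10.72 and 10.66 in the knockout, and its paralogue Rpl22l1 read 8.99, 10.02 and 10.26 against 9.05, 10.10 and 10.32. Both were lowest on the replicate 1 arrays, and they differed by 0.15 and 0.07 between genotypes. The dimmer Rpl22 probe was not lowest there, at 0.01 in wildtype and -0.01 in the knockout against the mean of the other 2 arrays. Rps27 differed by 0.01 and Rps27l, a paralogue induced by p53, by 0.04. Rpl7 differed by 0.09, Rpl39 by 0.01 and Rpl3 by -0.05. The dim Rpl39l differed by 0.33. Rpl3l read -1.12, -0.64 and -0.93 against -1.46, 0.92 and 0.37, a difference of 0.84 (95% interval -0.72 to 2.40). The 2 higher knockout readings of Rpl3l stood against a knockout reading below every wildtype array.

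Ribosomal protein readings, like those of the array as a whole, varied more with the replicate number than with genotype. The pattern was noticed in the data and is a description. For each gene the replicate 1 reading was set against the mean of replicates 2 and 3 of the same genotype. This difference had a median size of 0.75 log2 units over the members, against 0.07 for the difference between genotypes. It was the larger of the 2 for 54 of 59 members, a count not made over all probes. Over all probes its quartiles were -0.99 and 0.57 (SD 1.23, members 0.894), and those of the difference between genotypes -0.24 and 0.20. The replicate 1 difference was positive in both genotypes for 35 members, negative in both for 18 and of mixed sign for 6. Over all 33012 probes it was 10689, 16379 and 5944. With 1 probe per gene, chosen as for the members, it was 6326, 5381 and 2133 of 13840 genes. The median was 0.27 for the members, 0.07 with 1 probe per gene and -0.33 over all probes. The counts of members turn over when arrays are centred on their 75th percentiles, to 16 positive and 35 negative. Across the 59 genes the wildtype and knockout values, which share no array, correlated with Pearson's r = 0.925 and Spearman's rho = 0.958, and over all probes r was 0.757. Probes on an array share its scaling and range, and genes are not independent replicates.

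**Figure D3:**
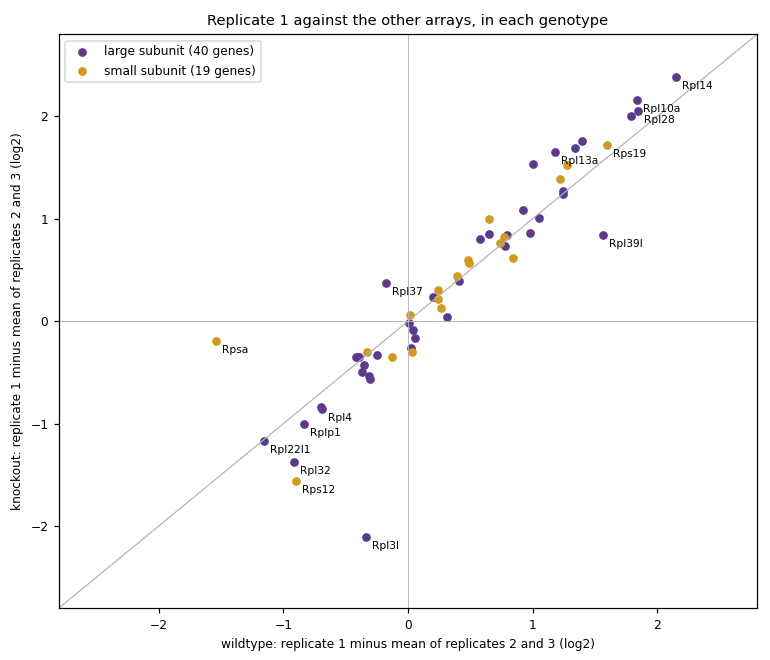
Replicate 1 minus the mean of replicates 2 and 3 (log2) in wildtype (horizontal axis) and knockout (vertical axis), with 1 point per gene, coloured by subunit, and the grey diagonal marking equal values. Most points lie near the diagonal, from Rps12, Rpl32 and Rpl22l1 at the lower left to Rpl14, Rpl10a and Rpl28 at the upper right.

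At the deposited scaling the shift ran in opposite directions among the members. The highest reading of any probe was 11.68 and 11.44 on the replicate 1 arrays and 12.27 to 12.46 on the others. Bright members such as Rpl32 and Rps12 read near that top, and the part of the array range in their shift was not tested. Rpl14 read 9.33 on replicate 1 against 6.94 and 7.42 in wildtype, and 9.31 against 6.78 and 7.08 in the knockout, 4.81-fold higher over both genotypes. Rpl10a, Rpl28, Rpl36 and Rps19 were 4.004, 3.86, 3.73 and 3.16-fold higher on replicate 1. In the other direction, Rps12 read 11.29 against 12.14 and 12.23 in wildtype and 10.69 against 12.33 and 12.18 in the knockout, 2.34-fold lower on replicate 1. Rpl22l1 was 2.24-fold, Rpl32 2.21-fold and Rplp1 1.89-fold lower there. Replicate 1 stood more than 1 log2 unit above the other arrays in both genotypes for 14 members (23.7%, against 14.6% of all probes). With 1 probe per gene, chosen as for the members, 3204 of 13840 genes did so, a share near that of the members. Replicate 1 stood more than 1 unit below the other arrays for 1 member, Rpl22l1 (1.69%, against 13.4% of all probes and 1232 of 13840 genes).

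The shift differed between ranges of probe level, without falling steadily from the lowest. Members were grouped by their mean on wildtype replicates 2 and 3, and the shift was read in the knockout arrays. Grouping and shift are not independent, because the grouping level is subtracted in the wildtype shift, which the knockout shift followed across genes. A gene high on replicate 1 tends to fall into a lower range, and a gene low there into a higher one. The counts by range are therefore set in part by the grouping. Below a level of 8, 6 of 10 members were higher on replicate 1 and 4 lower, from -2.10 to 2.38, with a median of 0.61 (all probes -0.29). Between levels of 8 and 10, 23 of 24 members were higher on replicate 1, with a median of 0.92. Of the 534 probes of the array in that range 43.3% were higher, with a median of -0.15. Between 10 and 11, 7 of 15 members were higher (median -0.09, all probes -0.32), and above 11 it was 0 of 10 (median -0.52, all probes -0.74). Members above 11, such as Rpl32, Rps12 and Rpl26, had a median on the same side of 0 as other very bright probes. Members at 8 to 10, such as Rpl28 and Rps19, had a median on the other side of 0 from the probes of their range. The difference was not tested, as genes of a set share their arrays.

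Part of the shift depended on scaling. After centring on 75th percentiles the members' median shift turned from 0.27 to -0.50, as that of all probes went from -0.33 to -1.11, and after quantile normalization it was 0.34. The count above 1 unit in both genotypes was 14 as deposited, 4 after centring (7.10% of all probes) and 12 after quantile normalization (10.6%). The count below -1 was 1 as deposited, 11 after centring (40.0% of all probes) and 1 after quantile normalization (7.95%). After quantile normalization 41 members were positive and 13 negative in both genotypes. The SD over members was 0.894 as deposited and 0.778 after quantile normalization. There Rpl14 stood at 2.03, Rpl28 at 1.81, Rpl22l1 at -1.40 and Rpl4 at -0.99. The other members named as lower moved towards 0, Rps12 from -1.23 to -0.55, Rpl32 from -1.15 to -0.45 and Rplp1 from -0.92 to -0.57, and Rpl26 turned from -0.77 to 0.09. Presomitic markers also differed with the replicate number. Of the 8, 4 were higher on replicate 1 in both genotypes, 2 lower and 2 of mixed sign, with a median of 0.14. The clock gene Hes7 read 5.76 and 6.002 on replicate 1 and 0.26 to 1.06 on the other arrays, and the presomitic factor gene Msgn1 read 5.65 and 5.65 against 1.49 to 2.10, whereas the presomitic factor gene Tbx6 stood at -0.76 and the Notch ligand gene Dll3 at -0.23 against the other arrays. Summed presomitic markers were 1404 and 1491 on replicate 1 and 1519 to 1736 elsewhere, surface ectoderm markers 292 and 301 against 205 to 215, and gut endoderm markers 62.7 and 58.9 against 33.0 to 46.7. Neural tube markers summed to 34.5 and 28.8 on replicate 1 against 18.2 to 27.6. Endothelial markers summed to 96.4 and 89.8 against 105 to 141, and primitive red cell markers to 5770 and 4894 against 6679 to 7739. These sums are carried by the brightest genes of each list, and single genes did not all follow them. Higher and lower on replicate 1 in both genotypes were 3 and 3 endothelial and 3 and 2 primitive red cell markers. For gut endoderm it was 2 and 3, for neural tube 1 and 2 and for surface ectoderm 6 and 1, with the rest of mixed sign. The part of these markers in the ribosomal protein shift was not tested.

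**Figure D4:**
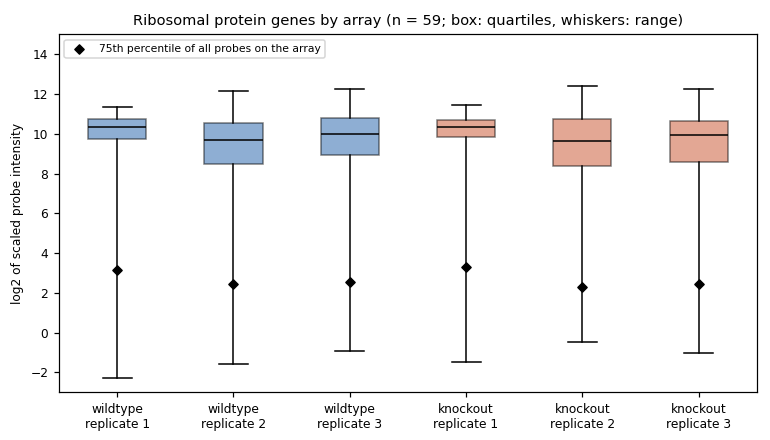
Log2 of scaled probe intensity (vertical axis) of the 59 ribosomal protein genes on each array (boxes, quartiles; whiskers, full range; blue, wildtype; orange, knockout), with the 75th percentile of all probes as a diamond. Medians are 10.33 and 10.34 on the replicate 1 arrays and 9.66 to 10.02 on the other 4, where the boxes are also wider.

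The array medians of the members showed the same order in both genotypes. They were 10.33, 9.68 and 10.02 in wildtype and 10.34, 9.66 and 9.92 in the knockout for replicates 1, 2 and 3. Replicate 1 was highest and replicate 2 lowest in both, and the range over the 6 arrays, each taken from its own array median, was 0.67. This order holds at the deposited scaling. Measured from each array's 75th percentile, 3.15 and 3.28 on replicate 1 and 2.29 to 2.56 elsewhere, replicate 1 was lowest in both genotypes.

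Probes for the same gene did not always agree on the shift. More than 1 probe was available for 9 members. For Rpl14 the brighter probe was higher by 2.15 and 2.38 and the other by 0.83 and 0.18. The brighter Rpl21 probe was higher by 1.34 and 1.69, while the other, a dim probe, stood at 0.18 and -0.14. After quantile normalization the means over both genotypes were 2.03 and 0.13 for the Rpl14 probes and 1.35 and -0.60 for the Rpl21 probes. The brighter Rpl26 probe stood at -0.70 and -0.84 and the other at 0.38 and 0.28, but after quantile normalization both were positive, with means of 0.09 and 0.30. For Rpl34 both probes were higher, by 1.40 and 1.76 and by 2.08 and 2.19. For Rplp0 both were lower, at -0.31 and -0.56 and at -0.60 and -0.84, as they were for Rps24, at -0.12 and -0.34 and at -0.93 and -0.86. The 3 Rpl31 probes stood at 0.06 and -0.16, at 0.80 and 0.84 and at -0.01 and -0.01. So the shift of a single probe is not always shared by the other probes of its gene. In the comparison of genotypes no probe of these 9 genes passed in limma (adjusted p of at least 0.999 for each in both fits). The groups were separated for 2 of the 10 dimmer probes, that of Rpl21 at 0.34 and that of Rpl22 at 0.18, both higher in the knockout (2.04% of all probes on that side), whereas the brighter Rpl21 probe stood at -0.26.

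**Figure D5:**
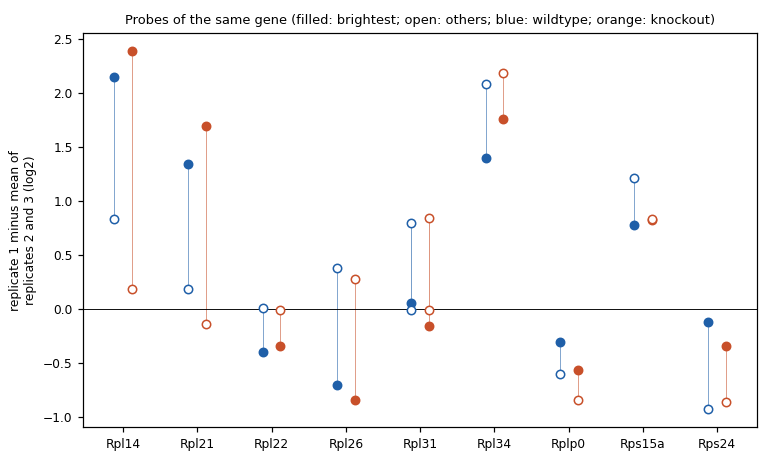
Replicate 1 minus the mean of replicates 2 and 3 (log2, vertical axis) for each probe of the 9 genes with more than 1 probe (filled, brightest; open, others; blue, wildtype; orange, knockout). At the deposited scaling the probes of Rpl26 lie on opposite sides of 0, where quantile normalization puts both above it, and those of Rpl34 and Rplp0 lie on the same side.

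Promoter sequences are shown because the start of these genes carries the pyrimidine run of their transcripts, which the choice of members did not use. RefSeq promoters of build GRCm38.p6 were matched for 49 of the 59 members, with 60 start sites. An uninterrupted run of at least 6 C or T letters that begins with C and has a letter within 10 bases of the annotated start, on the sense strand, was found for 30 of 49 members (61.2%), against 26.6% of 27025 genes. The motif CGGAAG, which holds the core bound by ETS factors with flanking letters, was searched on both strands of 300 bases. It was found for 33 of 49 members (67.3%), against 18.8% of genes. Its reverse complement CTTCCG can overlap a pyrimidine run, which it did for 1 member. A match is a description of letters and not a binding site. Members with the run had a median shift on replicate 1 of 0.38 (30 genes) and those without of 0.04 (19 genes), with ranges that overlapped. The 7 sequences printed here run from 50 bases before the start to 20 bases from it onward, 5′ to 3′ on the gene's strand. They belong to members with a single start site: Rpl14, Rpl28 and Rpl13a, with the largest positive shifts on replicate 1, Rps12, Rpl22l1 and Rpl4, with the largest negative shifts among members above the array medians, and Rpl38. Capitals mark the pyrimidine runs.
Rpl14, chr9:120571467-120571536, plus strand: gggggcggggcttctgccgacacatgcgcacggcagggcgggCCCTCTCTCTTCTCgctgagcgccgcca
Rpl28, chr7:4792915-4792984, plus strand: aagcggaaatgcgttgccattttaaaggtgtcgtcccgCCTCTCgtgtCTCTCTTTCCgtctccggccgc
Rpl13a, chr7:45128726-45128795, minus strand: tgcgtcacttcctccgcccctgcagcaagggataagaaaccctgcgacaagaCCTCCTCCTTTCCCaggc
Rps12, chr10:23787190-23787259, minus strand: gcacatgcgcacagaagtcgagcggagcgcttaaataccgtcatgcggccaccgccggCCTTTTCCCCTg
Rpl22l1, chr3:28805458-28805527, plus strand: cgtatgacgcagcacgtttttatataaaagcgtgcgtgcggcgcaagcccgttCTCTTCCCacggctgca
Rpl4, chr9:64173337-64173406, plus strand: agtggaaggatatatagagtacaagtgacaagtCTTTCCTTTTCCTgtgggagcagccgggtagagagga
Rpl38, chr11:114668530-114668599, plus strand: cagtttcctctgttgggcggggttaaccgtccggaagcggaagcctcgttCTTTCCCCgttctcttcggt
All 7 promoters hold a run at or near the start, both those of members higher on replicate 1 and those of members lower there.

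The other genes of protein synthesis did not pass either. Of 65 mitochondrial ribosomal protein genes 0 passed in limma with or without the block, 47 were higher and 18 lower in the knockout, and their median was 0.06 (-0.02 without wildtype replicate 2 and -0.07 without knockout replicate 1). At an unadjusted p under 0.05 stood 0 of them without and 1 with the block, the dim Mrps14 at 0.96. Of all probes 0.657% stood there without and 3.75% with the block. Translation factors, of which 35 of 46 were measured, were higher in the knockout for 18 genes and lower for 17 (median 0.02), with 0 at an unadjusted p under 0.05 in both fits. The largest was that of the dim Eef1a2, an elongation factor gene of nerve and muscle, at -1.05. Factors of ribosome assembly and RNA polymerase I, 54 of 66 measured, were higher in the knockout for 28 genes and lower for 26 (median 0.00). Of these 0 without and 1 with the block had an unadjusted p under 0.05, against 0.657% and 3.75% of all probes. It was Tcof1, a nucleolar factor of ribosomal RNA synthesis, at 0.27. Of 5 listed ribosomal proteins that the naming pattern leaves out, 2 were measured. Fau, which encodes a small-subunit protein fused to a ubiquitin-like part, differed by -0.17 between genotypes and Rpl36al by -0.04. On replicate 1 Fau stood 1.55 and 1.86 above the other arrays in wildtype and knockout, and Rpl36al 1.96 and 2.24. Members below a level of 8 on wildtype replicates 2 and 3, the range of both genes, went in both directions.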

How the data were processed

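Labelled cRNA from 6 samples was hybridised to Applied Biosystems single-colour arrays, per the labels' protocols. The descriptions name a human array, but the organism and the probe annotation are mouse. Values were deposited as linear intensity per probe, scaled by the authors so that each array's median is just under 1. The sources used here name no background correction, flag or filter, each of which would affect dim probes most. Array sums were 1019520 to 1125060.

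Intensities were converted to log2 and tested with limma 3.58.1 in R 4.3.3 (genotype, intensity trend, two-sided, Benjamini-Hochberg over 33012 probes, threshold 0.05), after tests on simulated data. Python 3.11.15 with pandas 2.3.3, numpy 2.4.6 and scipy 1.17.1 made the tables. Members and lists were chosen with earlier results of these data known. Named genes are those with the largest and smallest differences, p-values, levels and SDs, a set with known roles, paralogue pairs and genes with several probes. Deviations from the group means correlated within replicate number by 0.757, 0.442 and 0.374 over all probes. As each exceeds 0.1, same-numbered arrays were taken as pairs. Across numbers 2 and 3 they correlated by 0.397 and 0.419, so the separation of replicate 1 carries the pairing. Over the members the correlations were 0.844 and 0.698 within numbers 2 and 3, and 0.862 and 0.751 across them. The data thus do not tell matched from crossed pairs for replicates 2 and 3. The blocked fits and the counts of pairs rest on matching these by number. The labels tie no number to a litter or day. The replicate 1 shift and its alternatives, and the fit on replicates 2 and 3 with a block, were chosen after seeing the data.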

Additional observations from a re-analysis of the deposited data

How the results depend on the processing

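No member and no gene of the other lists for protein synthesis and p53 targets was called in any of 16 alternatives (limma). The count of members at an unadjusted p under 0.05, 1 as reported, was 2 with the replicate block, 3 with the replicate block and quantile normalization, 2 with array weights, 3 on replicates 2 and 3 only and 4 on these with the block. It was 0 after centring on 75th percentiles and with an offset of 1, and 0 to 2 when single arrays were left out. Of all probes 0.657% stood at this p as reported and 3.75% with the replicate block. The shares for the other alternatives are not given, so changes in these counts cannot be read as a result about the members. The block changed no call among the members and these lists. Over all probes it raised the calls from 0 to 2, with Nrarp among them. Members with separated groups numbered 3 as reported (3.78% of all probes), 1 after centring (1.95%), 14 on replicates 2 and 3 only (32.2%) and 3 to 13 with single arrays left out (8.04% to 19.9%), with 13 without knockout replicate 1 (19.9%). Fewer arrays separate more probes by construction. Intervals within 1 log2 unit of 0 were found for 38 members, and for 17 after centring, and for 28 to 32 with single arrays left out. The members' level stood 10.16 above the median of all probes, 9.02 with the offset and 7.40 among probes brighter than their median. The replicate 1 shift had 14 members above 1 unit and a median of 0.27, against 4 and -0.50 after centring. Of 41 named members, 32 changed sign in at least 1 alternative and 9 in none, among them Rpl37, Rpl17 and Rps13. The median difference stayed between -0.11 and 0.16. Whether bright probes reach the scanner's ceiling was not tested, and dim probes such as Rpl37, Rpsa, Rpl3l and Rpl39l carry little signal over background.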
